A study of Homo sapiens with 6 samples.

Results

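DNA replication and nucleotide supply were described through 59 genes in RNA of LoVo, an established human cell line of colorectal adenocarcinoma origin. The genes were chosen by name for the work their products do, with earlier results of these data known. All 59 were found among the 19223 gene symbols of the deposited table. Of the 137 transcripts listed for them, each gene was represented by the transcript whose mean over all 6 libraries was highest. The cultures stood either without drug, called Control and named as vehicle in the labels, or with DCC-2036 at 2.5 μM, an inhibitor of tyrosine kinases also known as rebastinib, and each group had 3 libraries. The labels give a treatment of 48 h, whereas the study's text gives a shorter time for the same dose, and this difference was not resolved here. Both groups were the same line in the same medium with serum and antibiotics, and total RNA of whole wells was used. Nothing in the labels says whether the libraries of a group came from separate cultures, so p-values measure the spread between these libraries, which may be technical.

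Before DNA can be copied, the origin recognition complex and the loading factors CDC6 and CDT1 place the MCM helicase on chromatin, a step called licensing that geminin keeps from being repeated within a cycle. The kinase CDC7 with its partner DBF4, together with CDC45 and the GINS complex, then turns the loaded ring into an active helicase, after which polymerase alpha-primase starts each strand and polymerases delta and epsilon extend it with the sliding clamp PCNA. Ribonucleotide reductase, thymidylate synthase and thymidine kinase supply the deoxynucleotides, and E2F factors control the transcription of many of these genes as cells enter S phase, so that their RNA is abundant in dividing cells of the gut lining and its tumours.

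The labelled cell type was checked against marker genes. Of 12 markers of colorectal epithelial cells, 8 passed the filter on low values, and their most abundant gene was the keratin KRT8. The other 4 (CDX1, VIL1, CEACAM5 and LGALS4) were under 10 in every library, and CDX1 was listed at 0 in all 6. Of the tested ones, KRT20 and HNF4A were low, at means of 53.1 and 14.7 in Control and 23.4 and 14.4 with DCC-2036. CDX2 had means of 297 and 286. The sum of the list rested mainly on the keratins KRT8, KRT18 and KRT19, with Control means of 59932, 19269 and 23490. Summed over the list, the epithelial markers came to 104506, 108202 and 115013 in Control and to 148366, 163505 and 188457 with DCC-2036, so that the sum was higher in every treated library. Most of this difference lay in KRT8, with a mean of 59932 in Control and 108237 with DCC-2036. Of the 8 tested markers, KRT8 and CDH1 were called higher (log2 fold changes 0.84 and 1.10), KRT20 was called lower (-1.15) and 5 were not called (limma, adjusted p under 0.01). At this limit 19.2% of all tested genes were called higher and 22.7% lower. Of 8 leukocyte markers, 3 (PTPRC, CD3D and MS4A1) were listed at 0 in all libraries and the sum, led by CD68, lay between 222 and 311. The fibroblast sum, led by COL1A1, was 443, 415 and 369.6 in Control and 522, 454 and 554 with DCC-2036, and the endothelial sum, led by VWF, was 14.2, 10.47 and 18.6 in Control and 42.3, 15.4 and 21.4 with DCC-2036. The part of these markers in the results on replication genes was not tested.

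The deposited values are signals already adjusted by the authors for the depth of each library. They are not whole numbers and not divided by transcript length, and the number of reads behind a library is unknown. Values at 0 differed in kind between the groups. The same 5697 of 45006 transcripts stood at 0 in each DCC-2036 library and no other transcript did in any of them, whereas in Control 7844, 7940 and 8078 transcripts stood at 0, of which 5929 were shared by all 3 libraries. The smallest values above 0 were 0.820, 0.606 and 0.752 in Control and 0.00326, 0.00702 and 0.0139 with DCC-2036. Values near 0 thus did not look alike in the groups, and how the values of each group were derived is not given in the sources used here. The lowest value of any of the 59 genes in any library was 49.9. The column totals were 38997229, 39956227 and 40587145 in Control and 43279603, 45957597 and 48023306 with DCC-2036, higher in every treated library. A log2 fold change below is the mean of log2(value + 1) with DCC-2036 minus that in Control, a scale on which the change of low values is understated. A gene was tested with limma when at least 3 libraries had a value of at least 10, which left 12725 genes, and was called at a two-sided Benjamini-Hochberg adjusted p under 0.01 over all of them.

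All 59 genes of replication and nucleotide supply passed the filter, and RNA of most of them was lower in the treated libraries. With limma, 33 fell at an adjusted p under 0.01, 2 rose and 24 were not called. The fallen genes made up 55.9% of the 59, against 22.7% of all tested genes, and the risen ones 3.39%, against 19.2%. The median log2 fold change over the 59 genes was -0.76, while over all tested genes it was -0.092. In 44 genes all 3 DCC-2036 values lay below all 3 Control values, a pattern held by 38.1% of all tested genes, and in 4 genes they lay above, as in 32.9% of all genes, which left 11 genes with overlapping groups. RNA came from whole cultures, so fewer cells in S phase and less of these RNAs per cell cannot be told apart. A fall of at least 1 on the log2 scale was called for 21 of the 59, compared with 15.2% of all tested genes. The genes that rose were ORC4 and RFC1.

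By step, the E2F factors with the chromatin protein UHRF1 had the lowest median log2 fold change, -1.44, and all 5 of them fell. Among 9 genes of origin recognition and licensing the median was -0.87, with 5 called lower and 1 higher. The 25 polymerases, clamp and fork factors had a median of -0.77, with 14 lower and 1 higher. Of 15 genes of the helicase and its activation, 6 fell and 0 rose, at a median of -0.58, and of 5 genes of nucleotide supply 3 fell and 0 rose, at a median of -0.52. Differences between steps were not tested.

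**Figure D1:**
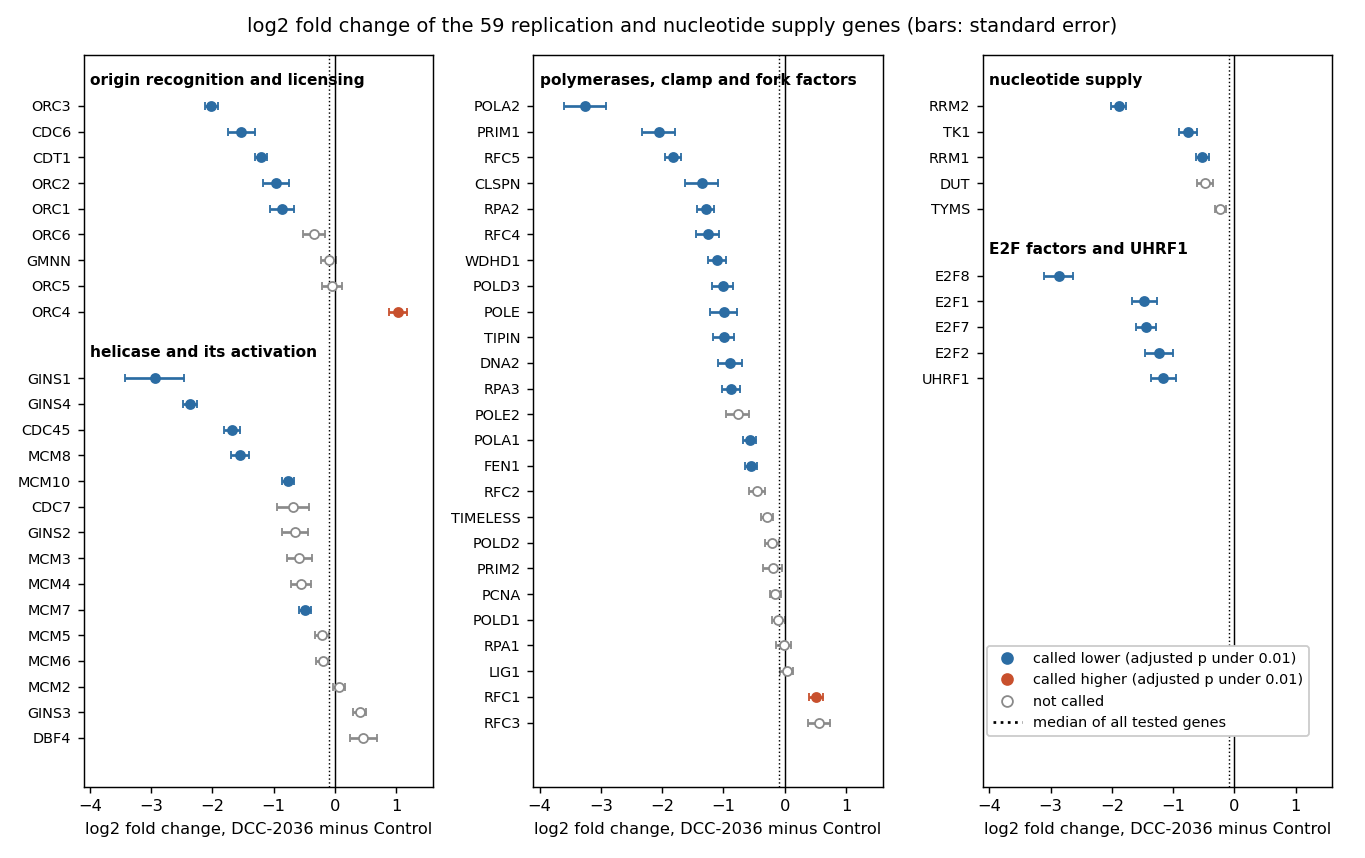
log2 fold change of the 59 genes, DCC-2036 minus Control on the log2(value + 1) scale, by step, with the standard error from limma as a bar. Filled blue points were called lower (33 genes), filled red points higher (2 genes) and open points were not called (24 genes); the dotted line is the median of all tested genes, -0.092.

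Scaling all libraries to equal totals moved the median over all tested genes from -0.092 to -0.28 and that over the 59 genes to -0.95. The distance between these medians was -0.67, and a scaling of whole libraries moves both medians alike, so that this distance says nothing about which scaling is right. With equal totals, 35 of the 59 genes were called lower and 1 higher, beside 26.6% and 13.5% of all tested genes, whose share of higher among called genes went from 45.8% to 33.6%. The count of calls also changed when single libraries were left out. Without DCC-2036 replicate 2, 18 of the 59 genes were called lower and 1 higher, while 1708 lower and 928 higher genes were called among all tested. Leaving out Control replicate 1, 2 or 3 gave 16, 17 and 17 lower calls and 1 higher call each time, and in these fits 1593, 1514 and 1525 of all genes were lower. Removal of DCC-2036 replicate 1 or 3 went the other way, with 3507 and 3253 of all genes lower and 2675 and 2487 higher. None of the called genes among the 59 lost its call in those 2 fits. At the same limits, each of the 35 called genes kept its direction in the 16 other fits (scalings, filters, pseudocount, trend, transcripts, replicate block and libraries left out), and 17 also kept the call: ORC3, ORC4, CDC6, CDT1, MCM8, MCM10, CDC45, GINS4, POLA2, PRIM1, RFC5, RPA2, WDHD1, RRM2, E2F1, E2F7 and E2F8. Of these 17, MCM10 was not called when a log2 fold change of at least 1 was also asked. The other 18 lost the call in at least 1 of the fits, 17 of them whenever any 1 Control library was left out and 16 also when DCC-2036 replicate 2 was left out. Without the filter on low values 11 lost it (ORC1, ORC2, MCM7, POLE, RFC1, FEN1, DNA2, CLSPN, RRM1, TK1 and E2F2), and with the replicate block also 11 (ORC1, ORC2, MCM7, POLA1, POLD3, POLE, RFC1, FEN1, TIPIN, CLSPN and RRM1). In the annotation, 13 of the 59 genes share exon bases with another protein-coding gene, among them DBF4 with SLC25A40, GINS2 with GSE1, MCM2 with TPRA1 and RPA3 with UMAD1 on the opposite strand, and POLD1 with a locus named by clone on the same strand, while the other cases are given with their gene.

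The E2F genes encode activators (E2F1, E2F2) and repressors (E2F7, E2F8) of the transcription of S phase genes. E2F1 stood at 761, 835 and 834 without the drug and at 391, 283 and 224 with it. E2F2 stood at 819, 733 and 757 in Control and 443, 339 and 234 with DCC-2036. For both activators every treated library was below every Control library, and replicate 3 was the lowest of the treated ones. E2F1 fell by 1.47 on the log2 scale (standard error 0.21, adjusted p = 0.00161, limma), and E2F2 fell by 1.23 (standard error 0.23, adjusted p = 0.00447, limma).

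The repressors fell as well. E2F7 measured 647, 603 and 537 in Control, compared with 265, 211 and 185 under DCC-2036. E2F8 went from 491, 479 and 453 to 94.1, 56.5 and 49.9, which left 14.1% of the Control mean. The groups did not overlap for either gene, and in both the Control libraries lay closer together on the log2 scale than the treated ones. Their log2 fold changes were -1.44 (standard error 0.16, adjusted p = 0.000776, limma) and -2.86 (standard error 0.24, adjusted p = 0.000338, limma). UHRF1, which reads hemimethylated DNA behind the fork and recruits the maintenance methyltransferase, had the highest mean of these 5 genes, with 4208, 4242 and 4115 in Control and 2348, 2033 and 1376 with DCC-2036. All treated libraries were lower, with replicate 3 the lowest (log2 fold change -1.16, adjusted p = 0.00342, limma). E2F2 and UHRF1 were no longer called when any 1 Control library or DCC-2036 replicate 2 was left out, nor was E2F2 without the filter, with adjusted p-values between 0.00106 and 0.0197 for E2F2 and between 0.000558 and 0.0154 for UHRF1 over all alternatives (limma).

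Since these factors bind the promoters of many replication genes, the promoter sequences were searched for the letters of 4 E2F motifs, TTTCCCGC, TTTGGCGC, TTTCGCGC and TTTGCCGC, on both strands of 300 bases from 250 before to 50 after the start of transcription (RefSeq, GRCh38.p14). Motifs on opposite strands can overlap by a few letters, as TTTGGCGC does with TTTCGCGC. At least 1 motif was found for 27 of the 51 genes with a promoter entry, 52.9%, compared with 3.99% of 27305 symbols with an entry and 6.61% of the tested genes that had one. Of all symbols, 1.98% held TTTCCCGC, 0.795% TTTGGCGC, 0.63% TTTCGCGC and 0.725% TTTGCCGC. A motif was present for 14 of 27 genes called lower (51.9%), for 13 of 22 genes not called (59.1%) and for 0 of the 2 that rose. A match is a description of letters and not evidence of a bound site. The promoters of E2F8, DNA2, MCM4, RPA2, GINS4, POLD3, MCM5 and RPA3 were not analysed here.

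Windows of 60 bases upstream of the start are shown for 8 of these genes, to set promoters of genes that fell (E2F1, CDT1, POLA2, POLE and TIPIN) beside those of genes that were not called (MCM6, GMNN and PCNA), with the motif letters in capitals and each window written 5′ to 3′ on the strand of its gene. The E2F1 window lies at chr20:33686386-33686445 on the reverse strand, that of CDT1 at chr16:88803728-88803787 on the forward strand, and that of POLA2 at chr11:65261883-65261942 on the forward strand. The POLE window lies at chr12:132687343-132687402 on the reverse strand and that of TIPIN at chr15:66356718-66356777 on the reverse strand. For the genes not called, the windows are chr2:135876500-135876559 on the reverse strand for MCM6, chr6:24775307-24775366 on the forward strand for GMNN and chr20:5126648-5126707 on the reverse strand for PCNA. In MCM6 and TIPIN the capitals hold motifs on both strands that overlap. The MCM6 promoter holds this arrangement at a further place upstream.
E2F1: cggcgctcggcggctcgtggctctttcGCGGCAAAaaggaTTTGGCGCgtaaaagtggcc
CDT1: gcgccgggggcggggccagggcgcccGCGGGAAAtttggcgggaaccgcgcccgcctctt
POLA2: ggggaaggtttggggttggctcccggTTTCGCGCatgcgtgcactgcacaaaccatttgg
POLE: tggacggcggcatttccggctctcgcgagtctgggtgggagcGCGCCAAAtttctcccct
TIPIN: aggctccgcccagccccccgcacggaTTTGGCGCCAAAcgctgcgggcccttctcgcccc
MCM6: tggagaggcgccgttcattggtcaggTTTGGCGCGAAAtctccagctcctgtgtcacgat
GMNN: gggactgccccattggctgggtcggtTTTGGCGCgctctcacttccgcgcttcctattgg
PCNA: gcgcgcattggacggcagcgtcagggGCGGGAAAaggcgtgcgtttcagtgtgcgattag

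A second element, the cell cycle genes homology region of promoters active later in the cycle, was searched as TTTGAA or TTTAAA on both strands, where TTTAAA reads the same on either strand. It was found for 7 of the 51 replication genes, 13.7%, for 21.0% of the tested genes with an entry and for 27.9% of all symbols. Within nucleotide supply, 4 of 5 promoters held it, and among 24 mitotic genes with an entry 21 did. Such short letters occur in many promoters, and no test was made.

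Origin recognition did not move as a unit. ORC3, a core subunit of the complex, was at 878, 932 and 826 in Control and at 228, 198 and 222 with DCC-2036, which was 24.6% of the Control mean on average. ORC4, another core subunit, had 598, 677 and 641 in Control and 1136, 1255 and 1555 with DCC-2036. The groups were far apart for both genes and in opposite directions. ORC3 fell by 2.02 (standard error 0.11, 95% confidence interval -2.28 to -1.76, adjusted p = 0.000186, limma) and ORC4 rose by 1.03 (standard error 0.14, interval 0.69 to 1.37, adjusted p = 0.00157, limma). ORC4 shares exon bases with ACVR2A and MBD5 on the opposite strand, whose log2 fold changes were 1.15 and -2.09, and whether the counting used strand is not given in the sources used here.

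ORC1, the subunit that is degraded and made again in each cycle, had 1151, 1239.8 and 1270.2 as Control values and 863, 674 and 509 as DCC-2036 values. The treated values were lower without overlap, and their spread was wider than in Control. ORC1 fell by 0.87 (standard error 0.20, adjusted p = 0.0092, limma), and ORC2 fell by 0.97 (adjusted p = 0.0076, limma). Both calls lay near the limit and were lost when any 1 Control library or DCC-2036 replicate 2 was left out, without the filter and with the replicate block, that of ORC1 also as the sum over all transcripts, and over all alternatives the adjusted p ranged from 0.00181 to 0.0351 for ORC1 and from 0.00184 to 0.0281 for ORC2 (limma). ORC5 and ORC6 were not called, with overlapping groups and log2 fold changes of -0.052 (interval -0.44 to 0.34) and -0.34 (interval -0.78 to 0.087). The sign for ORC5 turned under some alternatives, for example when libraries were scaled by median of ratios.

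The loading factors fell, while the inhibitor of loading was not called. CDC6, the ATPase that recruits the helicase to origins, stood at 2437, 2565 and 2529 without the drug and at 1159, 903 and 625 with it. CDT1, which brings the helicase with CDC6 and whose promoter window holds TTTCCCGC on the opposite strand, had 3762, 3999 and 4285 in Control and 1721, 1667 and 1829 with DCC-2036. In both genes the lowest Control library lay far above the highest treated one. GMNN, which encodes geminin and binds CDT1, had 752, 867 and 784 in Control and 663, 747 and 831 with DCC-2036, with overlap between the groups. The log2 fold changes were -1.53 for CDC6 (standard error 0.22, adjusted p = 0.00182, limma), -1.21 for CDT1 (standard error 0.10, adjusted p = 0.000368, limma) and -0.10 for GMNN (interval -0.40 to 0.19, adjusted p = 0.486, limma).

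The 6 genes of the MCM2-7 ring, the motor of the helicase, had log2 fold changes between -0.58 and 0.065, nearer to 0 than those of CDC45, GINS1 and GINS4. Of the 6, 1 was called lower, while 22.7% of all tested genes were, so this count does not set the ring apart from other genes. MCM7 had the highest mean value of the helicase genes, with 11273, 12126 and 12523 in Control and 8326, 8525 and 8799.8 with DCC-2036. MCM4 had 8929, 9384 and 9375 in Control and 7608, 6563 and 5004 with DCC-2036. MCM3 had 6326, 6340.3 and 6461 in Control and 5590.2, 4319 and 3193 with DCC-2036. The treated values of all 3 genes were lower without overlap, as in 38.1% of all tested genes. They lay close together for MCM7 and were spread widely for the others. MCM7 fell by 0.48 (standard error 0.096, adjusted p = 0.00561, limma), whereas MCM4 (-0.55, adjusted p = 0.0264, limma) and MCM3 (-0.58, adjusted p = 0.044, limma) were not called. The call of MCM7 was lost when any 1 Control library or DCC-2036 replicate 2 was left out, without the filter, with the replicate block and with scaling by median of ratios, and its adjusted p ranged from 0.000903 to 0.0303 over the alternatives. MCM3 and MCM4 were called without DCC-2036 replicate 1, and MCM4 also with all 6 libraries when limma was run with a trend, at the low end of adjusted p-values that ranged from 0.00557 to 0.107 and from 0.0073 to 0.0765 (limma). MCM7 shares exon bases with AP4M1 on the opposite strand, a gene with a mean value of 189 and a log2 fold change of -2.63.

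Of the other ring subunits, MCM2 measured 6163, 6600.2 and 6935 in Control, compared with 7196, 7028 and 6390.3 under DCC-2036. MCM5 had 5014, 5440.3 and 5848 in Control and 5192, 4664 and 4228 with DCC-2036. MCM6 had 3958, 4278 and 4164 in Control and 3969, 3526 and 3293 with DCC-2036. In each of these 3 genes the groups overlapped and the test was not passed. The log2 fold changes were 0.065 (interval -0.19 to 0.32), -0.21 (-0.51 to 0.079) and -0.20 (-0.47 to 0.061), and that of MCM2 became -0.12 with libraries scaled to equal totals. MCM8, a paralog that acts in recombination repair outside the ring, fell to 34.4% of its Control mean (-1.55, adjusted p = 0.000523, limma). MCM10, which helps the activated helicase leave the origin, fell to 58.9% (-0.77, adjusted p = 0.00136, limma).

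The partners that activate the helicase held the largest falls of this step. GINS1 was at 1053, 1133 and 1235 in Control and at 277, 172 and 66.2 with DCC-2036. CDC45, which with GINS completes the helicase, had 659, 709.6 and 676 in Control and 251, 196 and 194 with DCC-2036. Every treated library lay far below every Control library in both genes, and for GINS1 replicate 3 was well under the other treated libraries. GINS1 fell by 2.94 (standard error 0.49, interval -4.11 to -1.78, adjusted p = 0.00283, limma), while CDC45 fell by 1.68 (standard error 0.13, adjusted p = 0.000302, limma) and GINS4 fell by 2.37 (standard error 0.11, adjusted p = 0.000178, limma). Of the other subunits of the GINS complex, GINS2 (-0.66, adjusted p = 0.0331, limma) and GINS3 (0.40, adjusted p = 0.018, limma) were not called, and all GINS3 values with DCC-2036 lay above those of Control. GINS1 lost its call when any 1 Control library or DCC-2036 replicate 2 was left out, with a range of adjusted p from 0.000459 to 0.0135 (limma), and its log2 fold change lay between -3.40 and -2.38 over the fits without 1 library.

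DBF4, the regulatory partner of the CDC7 kinase, had the highest log2 fold change of the step and was not called. Its values were 1134, 1273 and 1097 in Control and 1178, 1629.9 and 2166 with DCC-2036. Treated replicate 1 lay among the Control values and replicate 3 far above them (log2 fold change 0.46, interval -0.075 to 1.00, adjusted p = 0.114, limma). CDC7 itself had a log2 fold change of -0.69 (interval -1.32 to -0.054, adjusted p = 0.0587, limma), with all treated values lower.

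Polymerase alpha-primase lays down the RNA-DNA primer of each new strand, and its subunits kept unequal shares of their Control level. POLA2, its accessory subunit, had 779, 922 and 896 as Control values and 129, 109 and 50.4 as DCC-2036 values. POLA1, the catalytic subunit, had 1149, 997 and 1076 in Control and 738, 692 and 732 with DCC-2036. Neither gene had overlapping groups, and POLA2 kept 11.1% of its Control mean where POLA1 kept 67.1%. POLA2 had the lowest log2 fold change of all 59 genes, -3.26 (standard error 0.34, interval -4.08 to -2.43, adjusted p = 0.000651, limma), and ranked 21 from the lowest among the 12725 tested genes. POLA1 fell by 0.57 (standard error 0.10, adjusted p = 0.0037, limma), a call lost with the replicate block and when any 1 Control library or DCC-2036 replicate 2 was left out (adjusted p from 0.00123 to 0.0204 over all alternatives, limma). Of the primase subunits, PRIM1, the catalytic one, fell to 25.1% of its Control mean (-2.06, adjusted p = 0.00133, limma), while PRIM2 was not called (-0.20, interval -0.57 to 0.17) and had a positive value, 0.20, in the transcript with the second highest mean. POLA2 and PRIM1 share exon bases with loci named by clone on the same strand, which were not analysed here, and PRIM1 shares them with HSD17B6 on the opposite strand, which had a mean value of 20.8.

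**Figure D2:**
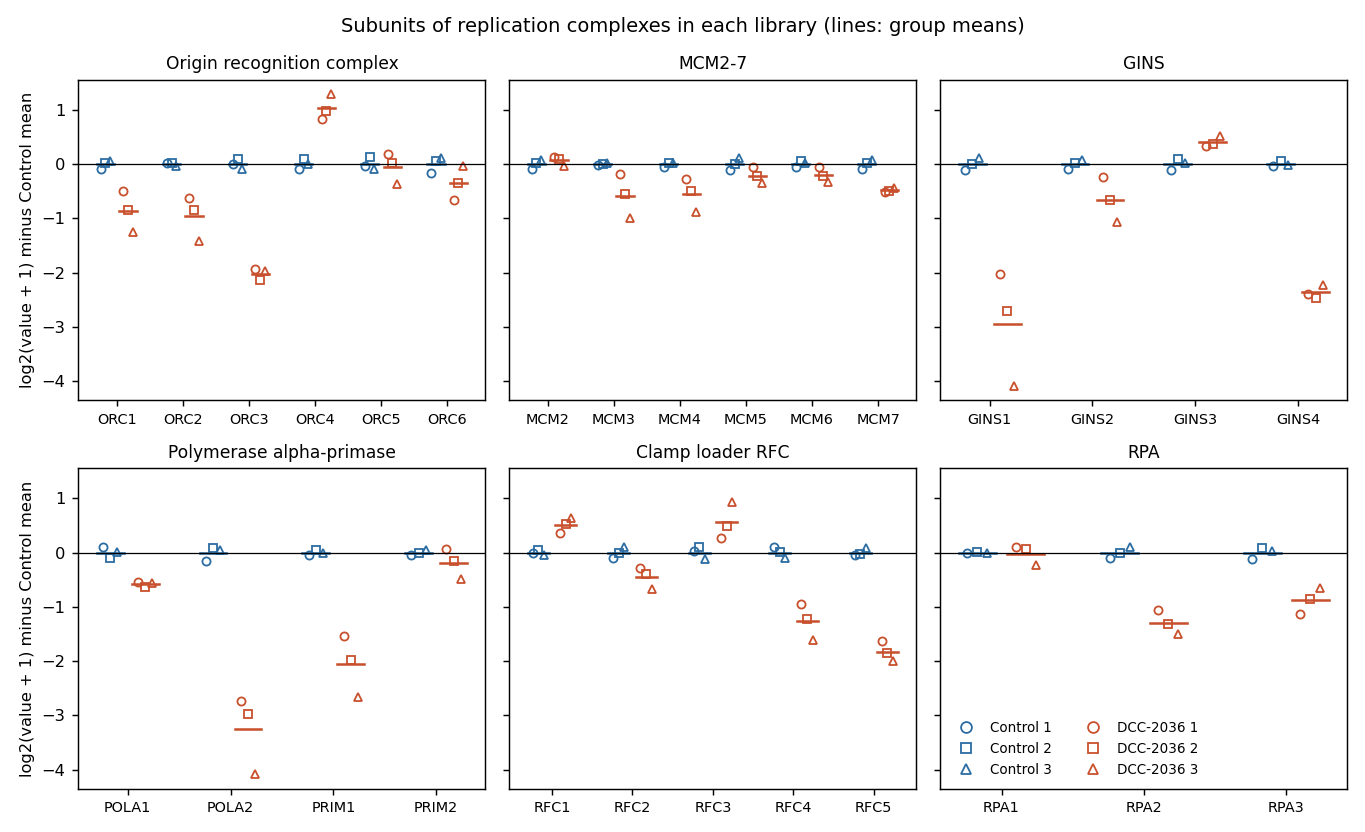
log2(value + 1) minus the Control mean of the same gene for subunits of 6 complexes, with 1 point per library, Control in blue, DCC-2036 in red, and a line at each group mean. ORC4, GINS3, RFC1 and RFC3 lie above 0 in every treated library, while ORC3, GINS1, GINS4, POLA2, PRIM1 and RFC5 lie far below it in every treated library.

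The leading strand polymerase and the checkpoint mediator CLSPN were lower. POLE, the catalytic subunit of polymerase epsilon, stood at 3887, 3740.3 and 3914 without the drug and at 2670.0, 1889.7 and 1414 with it. CLSPN, which encodes claspin, a fork protein that passes the stress signal to the kinase CHK1, had 1924, 1927 and 1864 in Control and 1056, 782 and 497 with DCC-2036. In both genes the 3 Control libraries lay close together, and the treated libraries were lower and spread out, with replicate 3 the lowest. POLE fell by 1.00 (standard error 0.23, adjusted p = 0.00937, limma) and CLSPN fell by 1.36 (standard error 0.26, adjusted p = 0.0052, limma). Both calls were lost when any 1 Control library or DCC-2036 replicate 2 was left out, without the filter and with the replicate block, and that of POLE also with a pseudocount of 0.1 and as the sum over all transcripts, and the adjusted p ranged from 0.00106 to 0.0336 for POLE and from 0.00106 to 0.0208 for CLSPN over all alternatives (limma). POLE2, the second subunit of polymerase epsilon, had a log2 fold change of -0.77 (adjusted p = 0.0119, limma) just outside the limit.

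PCNA, the sliding clamp, had the highest mean value of the polymerase and fork genes, 5815, 6019.8 and 5935 in Control and 5409, 5240.3 and 5285 with DCC-2036. The treated values were all lower, by a small step, and the gene was not called (-0.16, interval -0.37 to 0.057, adjusted p = 0.165, limma). The clamp loader subunits, in contrast, went both ways. RFC3 had the highest log2 fold change of this step, with values of 855, 898 and 771 in Control and 1007, 1186 and 1596 with DCC-2036. The groups did not overlap but the treated libraries were far apart, and RFC3 was not called (0.56, interval 0.12 to 1.00, adjusted p = 0.035, limma). RFC1, the large subunit, rose from 2439.9 ± 79.7 (SD, n = 3) to 3484 ± 329.5 (SD, n = 3), with a log2 fold change of 0.51 (adjusted p = 0.00767, limma). This call was lost with equal totals (log2 fold change 0.32), without the filter, with the replicate block and when any 1 Control library or DCC-2036 replicate 2 was left out, with adjusted p-values from 0.00174 to 0.0344. RFC5 went from 1849 ± 87.3 (SD, n = 3) to 524 ± 67.9 (SD, n = 3), and thus fell by 1.82 on the log2 scale (adjusted p = 0.000237, limma), and RFC4 fell by 1.26 (adjusted p = 0.00182, limma), a call that just missed the limit without Control replicate 1 (adjusted p = 0.01005, with a range from 0.000294 over the alternatives, limma). RFC4 shares exon bases with EIF4A2 on the opposite strand, which had a mean value of 3944 and a log2 fold change of -0.30. RFC2 was not called (-0.45, adjusted p = 0.0241, limma).

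Among the 3 subunits of RPA, which coats single strands, RPA2 and RPA3 fell to 41.1% and 54.6% of their Control means, whereas RPA1, the largest, was not called (-0.017, interval -0.31 to 0.27), with a sign that turned under scaling by median of ratios. Of polymerase delta, POLD3 fell to 50.03% while POLD1 (-0.10) and POLD2 (-0.21) were not called. The nuclease FEN1, which trims Okazaki fragments, fell to 68.5%, and the helicase-nuclease DNA2 to 54.7%. LIG1, the ligase that seals the fragments, was not called (0.030, interval -0.22 to 0.28), and its sign turned with equal totals. In the fork protection complex, TIPIN fell to 50.5% and its partner TIMELESS was not called (-0.29, adjusted p = 0.0381, limma). WDHD1, which links polymerase alpha to the helicase, fell to 46.7%. The adjusted p-values of these called genes lay between 0.000724 for RPA2 and 0.00722 for DNA2 (limma), and those of RPA3, POLD3, FEN1, DNA2 and TIPIN were above 0.01 in fits that left out a Control library, at most 0.030 for DNA2. FEN1 shares exon bases with FADS2 on the same strand and TMEM258 on the opposite strand, whose log2 fold changes were -0.35 and -0.74.

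Nucleotide supply was led by ribonucleotide reductase, the enzyme that turns ribonucleotides into deoxynucleotides. RRM2, its small subunit, which is made mainly in S phase, measured 10558, 11670.0 and 11843 in Control, compared with 3301, 3242 and 2681 under DCC-2036. RRM1, the large subunit, had 4269, 4509 and 4574 in Control and 3249.9, 3198 and 2866 with DCC-2036. All treated libraries were below all Control libraries for both, by far more in RRM2, which kept 27.1% of its Control mean where RRM1 kept 69.8%. RRM2 fell by 1.89 (standard error 0.12, interval -2.18 to -1.59, adjusted p = 0.000216, limma) and RRM1 fell by 0.52 (standard error 0.10, interval -0.76 to -0.28, adjusted p = 0.0052, limma). The call of RRM1 was lost when any 1 Control library or DCC-2036 replicate 2 was left out, without the filter and with the replicate block, and its adjusted p ranged from 0.00096 to 0.0274 (limma). RRM2 shares exon bases with a locus named by clone on the same strand, which was not analysed here.

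TK1, the thymidine kinase of the salvage pathway, was at 6372, 7067 and 7437 in Control and at 3462, 4142 and 4800.3 with DCC-2036. TYMS, thymidylate synthase, had 4246, 4483 and 4499 in Control and 3867, 3775 and 3639 with DCC-2036. DUT, which removes dUTP so that uracil stays out of DNA, had 794, 676 and 711 in Control and 519.5, 466 and 579 with DCC-2036. In all 3 genes every treated value lay below every Control value, as in 38.1% of all tested genes. In TK1 replicate 1 was the lowest treated library, unlike in the E2F factors and UHRF1. TK1 fell by 0.76 (standard error 0.15, adjusted p = 0.00519, limma), a call lost with scaling by median of ratios, without the filter and when any 1 Control library or DCC-2036 replicate 2 was left out (adjusted p from 0.000935 to 0.0241, limma). TYMS (-0.23, interval -0.45 to -0.0072, adjusted p = 0.0683, limma) and DUT (-0.48, interval -0.78 to -0.18, adjusted p = 0.0156, limma) were not called. No gene of this step had a positive log2 fold change. TYMS shares exon bases with ENOSF1 on the opposite strand, which had a mean value of 2329 and a log2 fold change of -0.27.

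**Figure D3:**
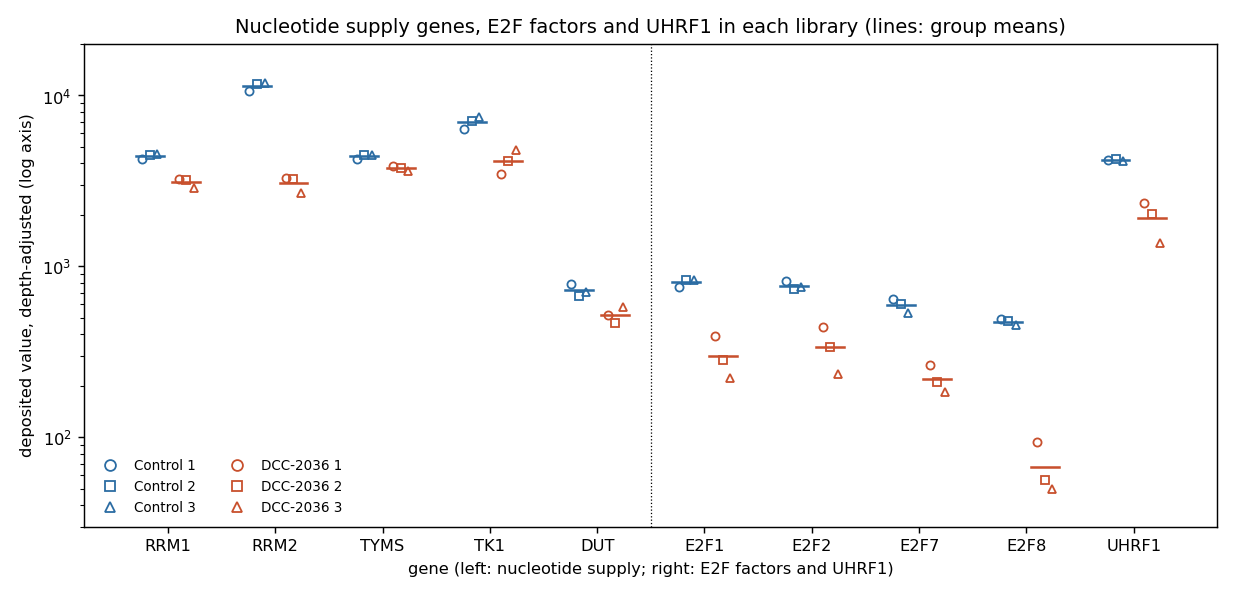
Deposited values of the 5 genes of nucleotide supply, 4 E2F genes and UHRF1 in each of the 6 libraries on a log axis, Control in blue and DCC-2036 in red, with a line at each group mean. All treated values lie below all Control values for each of the 10 genes, a pattern held by 38.1% of all tested genes. The gap is smallest for TYMS and largest for E2F8 and RRM2.

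Levels of different genes were compared per kb of transcript, with lengths from GENCODE 29 for 56 of the 59 genes. PCNA had the highest mean in both groups, at 4407 ± 76.4 (SD, n = 3) per kb in Control and 3952 ± 65.0 (SD, n = 3) with DCC-2036. TK1 (4274 ± 332 per kb) came next in Control with a wider spread, within which PCNA lay, and MCM7 (3883 ± 207) and RRM2 (3307 ± 203) followed. With DCC-2036, RRM2 stood at 895 ± 99.6 per kb and went from rank 4 to rank 13, while MCM7 was at rank 2 and TYMS at rank 4. At the other end, ORC4 had the lowest mean level per kb in Control (97.8 ± 6.08), with E2F7 within its spread (104 ± 9.62), and stood at rank 35 of 56 with DCC-2036 (201 ± 33.1), above ORC3 (86.3 ± 6.29), which was at rank 34 in Control and rank 48 with DCC-2036. The lowest levels with DCC-2036 were those of E2F8 (20.6 ± 7.38 per kb) and POLA2 (25.7 ± 11.0 per kb), which lay within each other's spread.

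**Figure D4:**
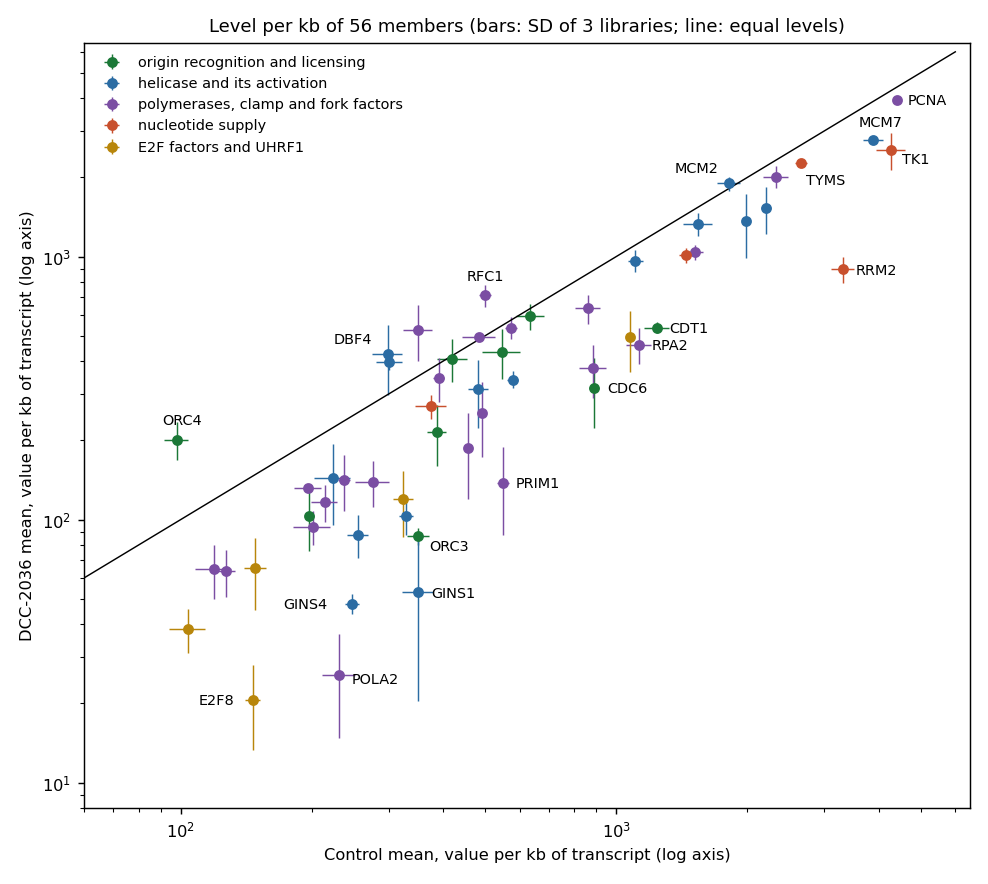
Mean deposited value per kb of transcript in Control (horizontal axis) and with DCC-2036 (vertical axis) for 56 genes, both on log axes, with the SD of 3 libraries as bars and the line of equal levels. Most points lie under the line, RRM2, GINS1, GINS4, POLA2 and E2F8 far under it, and ORC4 lies above it.

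Within complexes, the subunits with the lowest and the highest log2 fold change were set against each other as a log2 ratio inside each library, which does not depend on how libraries are scaled. The pairs were picked by these same values, which fixes the direction of the shifts and favours large ones, so they are given as a description and were not tested. The ratio of ORC3 to ORC4 was 0.55, 0.46 and 0.36 in Control and -2.31, -2.66 and -2.81 with DCC-2036, a shift of -3.05. For GINS1 against GINS3 it was 1.12, 1.03 and 1.24 in Control and -1.23, -1.96 and -3.47 with DCC-2036, a shift of -3.35. For POLA2 against PRIM2 the shift was -3.06, and for RFC5 against RFC3 it was -2.39.

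The ratio of RRM2 to RRM1 was 1.31, 1.37 and 1.37 in Control and 0.022, 0.020 and -0.096 with DCC-2036, a shift of -1.37 with little spread in either group. The ratio of CDT1 to its inhibitor GMNN went from 2.32 ± 0.12 (SD, n = 3) to 1.22 ± 0.13 (SD, n = 3), a shift of -1.10. The other shifts were those of RPA2 against RPA1 (-1.27), CDC7 against DBF4 (-1.15), POLD3 against POLD1 (-0.91), TIPIN against TIMELESS (-0.71), MCM3 against MCM2 (-0.65) and POLE against POLE2 (-0.23).

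The 59 genes varied more between the treated libraries than between the Control libraries, with a median SD on the log2 scale of 0.0789 in Control and 0.234 with DCC-2036, as did all tested genes (0.101 and 0.228). Against the Control mean, the median log2 difference over the 59 genes was -0.53 in DCC-2036 replicate 1, -0.69 in replicate 2 and -0.97 in replicate 3, while over all tested genes it was -0.027, -0.071 and -0.12. Replicate 3 was the lowest treated library in 37 of the 59 genes (62.7%) and replicate 1 the highest in 43 (72.9%), against 43.2% and 41.7% of all tested genes. Replicate 2 lay between the others in 50 of them, 84.7%, compared with 67.6% of all tested genes. All tested genes hold both falls and rises, and over them replicate 3 was the lowest treated library in 5499 and the highest in 5378. The order among all genes that fell was not analysed here, so this comparison does not set the replication genes apart from other falling genes. In all 5 genes of the E2F and UHRF1 group replicate 3 was the lowest and replicate 1 the highest of the treated libraries. What set the treated libraries apart from each other was not tested. The limma tests take the libraries of a group as independent, and whether the treated libraries were is not known.

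Other genes around replication were taken from lists chosen for their function, with earlier results of these data known. Of 39 other replication factors, 17 fell and 3 rose, with a median log2 fold change of -0.50. The largest fall was that of ASF1B, a histone chaperone at the fork, from 2236 ± 54.7 (SD, n = 3) to 306 ± 81.2 (SD, n = 3), where it fell by 2.90 on the log2 scale (adjusted p = 0.000216, limma), and the largest rise that of TOP1, topoisomerase I, by 0.50 (adjusted p = 0.0087, limma). Of 33 other genes of nucleotide synthesis and salvage, 11 fell and 5 rose at a median of -0.16, led by PFAS (-1.89, adjusted p = 0.000441, limma) and PPAT (1.04, adjusted p = 0.00514, limma), both enzymes of purine synthesis. Of 16 other E2F, RB and DREAM genes, 9 fell and 0 rose at a median of -0.69, and RB1, which encodes the pocket protein that restrains E2F activators, had the lowest log2 fold change, -1.94, from 1095 ± 19.8 (SD, n = 3) to 306 ± 142 (SD, n = 3) (adjusted p = 0.00318, limma), although the less abundant LIN37 kept 27.51% of its Control mean and RB1 27.97%. Of 15 regulators of the entry into S phase (cyclins, kinases, kinase inhibitors, the phosphatase CDC25A and the F-box protein SKP2), 8 fell and 2 rose at a median of -0.59, led by CDK2 (-1.39, adjusted p = 0.000257, limma) and SKP2 (0.63, adjusted p = 0.00306, limma). Of 29 mitotic genes, 19 fell and 0 rose at a median of -0.65, with AURKB the lowest (-2.61, adjusted p = 0.000178, limma). The share that fell was above the 22.7% of all tested genes in each list. The share that rose was below the 19.2% of all tested genes in each, at most 15.2% (other nucleotide synthesis and salvage). The lists were not tested against each other.

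**Figure D5:**
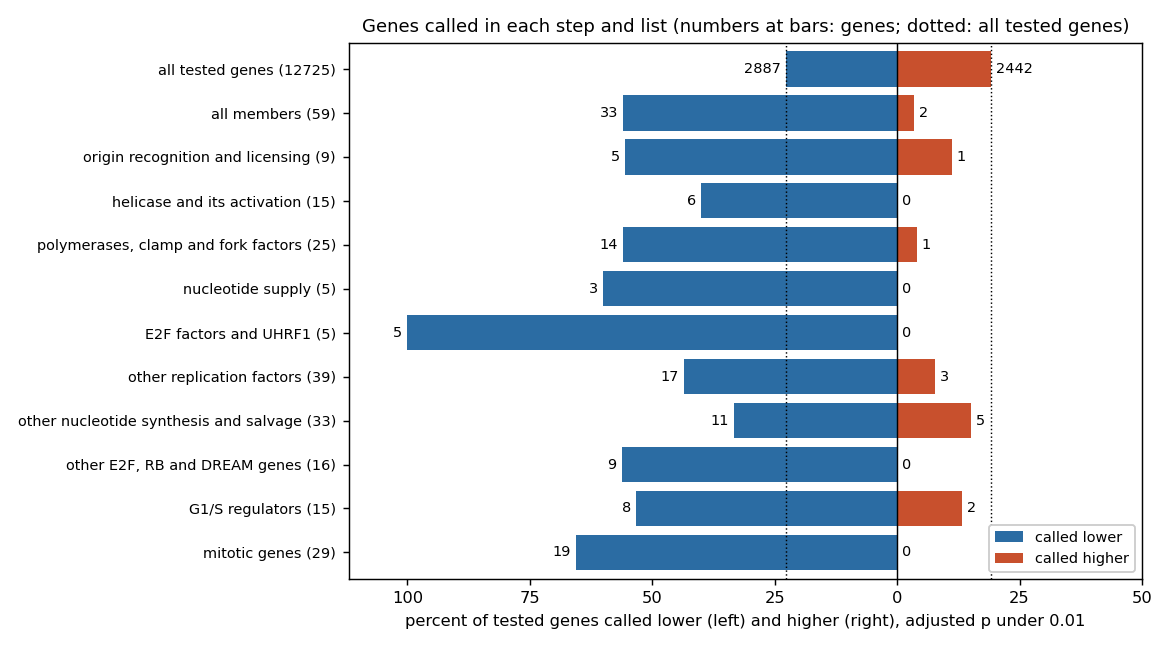
Percent of tested genes called lower (blue, to the left) and higher (red, to the right) at an adjusted p under 0.01 (limma) in all tested genes, the 59 genes, their 5 steps and 5 other lists, with the number of tested genes in brackets, the number called at each bar and dotted lines at the share among all tested genes. The bar for genes called lower is longest for the E2F factors with UHRF1 (5 of 5) and shortest, among the steps and lists, for other nucleotide synthesis and salvage (11 of 33).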

How the data were processed

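RNA of 6 LoVo libraries was analysed, with groups taken from the sample titles. The deposited table holds 1 signal per RefSeq transcript and library, adjusted by the authors to a common depth, and how reads were aligned, counted and handled by strand is not given in the sources used here. Per the file headers, the table also holds the authors' log2 fold change, p-value and q-value per transcript, which were not used. The table had 0 columns of values of no sample.

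For each symbol the transcript with the highest mean was kept. Symbols that reached 10 in 3 or more libraries were tested as log2(value + 1) with limma 3.58.1 in R 4.3.3, without covariates, since the values are not counts. The code was tested on simulated data. Reads per library are unknown, so no interval from counting can be given. Other steps used Python 3.11.15 (pandas 2.3.3, numpy 2.4.6, matplotlib 3.10.9). Transcript lengths and exon overlaps came from GENCODE 29, and promoters from RefSeq.

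The genes and lists were chosen with earlier results of these data known. Values in every library are given for the lowest, the highest and the most abundant gene of each step and for a set of well known members, and each other list is shown by its called genes with the largest rise and fall. GINS2, GINS3, GINS4, RFC1, RFC5, PRIM1 and the remaining genes were placed in the text after their values had been seen. Alternatives were 3 scalings, other filters, a pseudocount of 0.1, limma with a trend, other choices of transcript, the replicate number as a block, the removal of single libraries in turn and other limits. The distance of the median of the 59 genes from that of all genes was added after the data had been seen.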

Additional observations from a re-analysis of the deposited data

How the results depend on the processing

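The count of 33 lower genes stayed within 1.5 times under the scalings, filters, pseudocount, trend and transcript choices tried, at 23 to 36, and was 40 at an adjusted p under 0.05 and 21 when a fall of at least 1 on the log2 scale was also asked. Over all tested genes, the 2887 lower calls became 2154 (no filter) to 3388 (equal totals) under the same settings. A fall of at least 1 was called for 15.2% of all tested genes, and their share at an adjusted p under 0.05 is not given here. Across the fits without 1 library the count of lower genes among the 59 lay between 16 and 37, and that of higher genes between 1 and 3. Over all genes, these fits gave 1514 to 3507 lower and 928 to 2675 higher calls. The 2 higher genes became 1 with equal totals, without a filter on low values, with the replicate block and when a rise of at least 1 was also asked, and 4 at an adjusted p under 0.05. The median of the 59 genes lay between -0.95 (equal totals) and -0.58 (without DCC-2036 replicate 3).

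The deviations of same-numbered libraries correlated at 0.081, -0.035 and -0.0033. These values show no pairing by replicate number, but with 3 libraries a group they cannot settle whether cultures were paired. With the replicate block, 23 of the 59 genes were lower and 1 higher, among 1909 lower and 1202 higher in all.

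Of 24 genes not called, 7 were called in some of 16 other fits at the same limit, 9 had an adjusted p under 0.05 (limma), and 5 changed sign in some fit, of which none was among those called in another fit. LIG1 went to -0.16 with equal totals and -0.001 as the sum over all transcripts, and lay between -0.0104 and 0.10 without 1 library. MCM2 went to -0.12 with equal totals. ORC5 went to 0.029 with median of ratios, 0.018 as the sum over all transcripts and 0.18 with the second transcript, and lay between -0.17 and 0.10 without 1 library. PRIM2 went to 0.20 with the second transcript. RPA1 went to 0.064 with median of ratios and 0.0028 with upper quartiles, and lay between -0.080 and 0.086 without 1 library. The causes were not tested. Each gene rests on 3 libraries a group and unknown depth, and 13 of the 59 share exon bases with another protein-coding gene.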

Other observations

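Within nucleotide synthesis, beyond the genes of the report, the list of 33 genes held calls in both directions. Of this list 33.3% fell and 15.2% rose, against 22.7% and 19.2% of all tested genes. The share that rose was thus below that of all tested genes, and the difference was not tested. Genes named in this paragraph and the next were chosen after their values had been seen. In pyrimidine synthesis, CAD, which carries the first activities of the route, went from 5876 ± 282 (SD, n = 3) to 1976 ± 662 (SD, n = 3), at -1.63 on the log2 scale (adjusted p = 0.00205, limma), and UMPS, which carries the last steps to UMP, had -1.70 (adjusted p = 0.00308, limma). DTYMK, the thymidylate kinase that acts after both TYMS and TK1, went from 1548 ± 124 (SD, n = 3) to 602 ± 26.1 (SD, n = 3), at -1.36 (adjusted p = 0.000302, limma). In purine synthesis, ADSL (-1.47, adjusted p = 0.000396, limma) and GART (-0.99, adjusted p = 0.000472, limma) fell like PFAS, whereas PPAT rose. PAICS (0.22), ATIC (-0.22) and GMPS (0.01), of the same synthesis, were not called. Besides PPAT, the genes that rose were DCTD, dCMP deaminase (0.51, adjusted p = 0.00544, limma), the nucleotide kinases GUK1 (0.98, adjusted p = 0.00155, limma) and NME2 (0.92, adjusted p = 0.00507, limma), and the deoxynucleoside kinase DCK (0.78, adjusted p = 0.00599, limma), which acts in salvage. RRM2B, the reductase subunit made outside S phase, was not called (0.32, adjusted p = 0.0438, limma), and its treated values all lay above those of Control.

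Of the 39 other replication factors, 17 fell (43.6%, against 22.7% of all tested genes), 3 rose (7.69%, against 19.2%) and 19 were not called. CHAF1A, a subunit of the chromatin assembly factor that works with PCNA, went from 2288 ± 137 (SD, n = 3) to 586 ± 263 (SD, n = 3), at -2.06 (adjusted p = 0.00194, limma). TICRR, which joins CDC45 to the loaded helicase, had -1.44 (adjusted p = 0.00136, limma), and ATRIP, the partner of the checkpoint kinase ATR, had -2.50 (adjusted p = 0.000228, limma). Those that rose were TOP1, the FACT subunit SSRP1 (0.44, adjusted p = 0.00905, limma) and DDB1, an adaptor of a ubiquitin ligase that marks CDT1 (0.44, adjusted p = 0.00964, limma). Mitotic genes also differed among themselves. CCNB1, cyclin B, went from 6640.4 ± 277 (SD, n = 3) to 1980.4 ± 127 (SD, n = 3), at -1.75 (adjusted p = 0.000193, limma), while its paralog CCNB2 was not called (0.35, adjusted p = 0.0276, limma). The proliferation marker MKI67 went from 15941 ± 681 (SD, n = 3) to 7674 ± 673 (SD, n = 3), at -1.06 (adjusted p = 0.000624, limma). CDK1 was not called (-0.30, adjusted p = 0.161, limma). Effects of scaling or of single libraries on the genes of these paragraphs were not analysed here.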
